A study of Mus musculus with 21 samples.

Results

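Ketone body metabolism in the heart was followed through 4 genes, Bdh1, Oxct1, Acat1 and Slc16a1. They were taken by their gene names from the 19096 genes of the deposited expression matrix and read across 21 mouse hearts. All animals were male C57BL/6NJ mice that were 8 to 10 weeks old at the start and ate either chow or a diet with 60% of its calories from fat for 10 weeks. Each also received either an adeno-associated virus (AAV) carrying renin or a control, and hearts were taken 6 weeks after the injection. Chow control (n = 4) and high-fat control (n = 6) are called novirus in the sample labels and null vector in the series text. Chow renin (n = 6) and high-fat renin (n = 5) received AAV-Renin, and the series treats high-fat renin, the combination, as its HFpEF cohort (heart failure in which the ejection fraction is preserved). The promoter of the vector was not given in the sources used here.

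Ketone bodies, mainly beta-hydroxybutyrate and acetoacetate, are made in the liver from fatty acids and burned by other organs, the heart among them. They cross membranes through monocarboxylate transporters such as MCT1, the product of Slc16a1. In mitochondria, BDH1 oxidises beta-hydroxybutyrate to acetoacetate, SCOT (the product of Oxct1) transfers coenzyme A from succinyl-CoA to acetoacetate, and the thiolase ACAT1 splits acetoacetyl-CoA into acetyl-CoA for the citric acid cycle. SCOT is the committing step of ketone use.

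Bdh1 had the largest differences of the 4 genes between the high-fat groups and between the control groups, and smaller ones than Oxct1 where either renin group was set against chow control. It was estimated at 0.47 times chow control in high-fat control hearts and at 2.31 times high-fat control in high-fat renin hearts, but neither difference passed the test over all genes. Oxct1 varied with Bdh1 from heart to heart over a smaller range. Acat1 had the smallest spread within groups of the 4 genes and was called in none of the comparisons. Slc16a1 was lower in chow renin than in chow control by a margin that only just passed the test.

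All 4 genes were among the well expressed genes of the heart. Levels between genes are given as TPM, a gene's share of the transcripts in a library after correction for length. Averaged over the 21 hearts, Oxct1 stood at 239.4 TPM, Acat1 at 156.4 TPM, Bdh1 at 91.5 TPM and Slc16a1 at 32.9 TPM. Ranked by TPM within each heart among the 23718 genes with reads, they averaged percentiles 98.9, 98.4, 96.5 and 93.2, in that order. Levels of a single gene between hearts are given below as CPM, counts relative to library size after TMM scaling. A difference is a log2 fold change from edgeR's quasi-likelihood test, and it is called where the p-value adjusted over 15216 genes is under 0.05.

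Libraries held 18.6 to 29.0 M assigned reads (M, mega reads). The member with fewest reads in any heart was Bdh1, with 621. All 8 cardiomyocyte markers had reads, with summed levels of 27648 to 31863 TPM in high-fat renin and 31751 to 41316 TPM in the other 3 groups. Liver markers (4 genes) summed to at most 5.88 TPM and adipose markers (4 genes) to at most 9.03 TPM in any heart. Markers of the central nervous system (10 genes) summed to 72.6 to 123.6 TPM in chow renin and to 17.1 to 32.7 TPM in the other 3 groups. The difference between day-phase and night-phase clock genes, in mean log2 CPM, was 3.82 to 4.23 in chow control, 3.19 to 3.5 in chow renin, 3.53 to 3.85 in high-fat control and 2.4 to 3.45 in high-fat renin. The mouse's own renin gene Ren1 was nearly silent, with at most 5 reads in a heart and none in most, and so checks no label. Atrial markers (4 genes) summed to 215 to 1870 TPM in chow control and 87.1 to 1596 TPM in chow renin. They summed to 44.7 to 1289 TPM in high-fat control and 163 to 1550 TPM in high-fat renin. The sample titles name the heart and no part of it, and the role of atrial content was not tested. In heart tissue, fewer cells of a type and less RNA per cell cannot be told apart.

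A pair of hearts stood apart from their groups in the ketone genes, and they were singled out after their values were seen. High-fat control replicate 4 had 150.0 CPM of Bdh1 and 925.7 CPM of Oxct1, within the range of chow control for both genes. Chow renin replicate 6 had 61.3 CPM of Bdh1 and 652.9 CPM of Oxct1, inside the range of high-fat control. Its central nervous score, the mean log2 CPM of those markers, was 3.99, where high-fat control hearts had 2.03 to 2.76. High-fat control replicate 4 had a score of 2.76, the highest of its group, where chow control had 1.59 to 2.2 and chow renin 3.72 to 4.59. Whether either heart carries a wrong label was not tested, and both were kept under their labels.

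Bdh1 lies on chromosome 16 (GRCm38, 16:31422280-31458901, plus strand, identifier ENSMUSG00000046598) and Oxct1 on chromosome 15 (15:4026383-4155344, plus strand, ENSMUSG00000022186). Acat1 is on chromosome 9 (9:53580522-53610382, minus strand, ENSMUSG00000032047) and Slc16a1 on chromosome 3 (3:104638668-104658462, plus strand, ENSMUSG00000032902). Promoter sequences from RefSeq (GRCm38.p6) matched 3 of the 4 genes. The windows before the starts of Bdh1 and Oxct1 are shown because these genes moved together across hearts and because Bdh1 has several annotated starts. Each is on the plus strand, 5′ to 3′, and ends at the first base of the named GENCODE transcript, printed as a capital.
Bdh1-201 window: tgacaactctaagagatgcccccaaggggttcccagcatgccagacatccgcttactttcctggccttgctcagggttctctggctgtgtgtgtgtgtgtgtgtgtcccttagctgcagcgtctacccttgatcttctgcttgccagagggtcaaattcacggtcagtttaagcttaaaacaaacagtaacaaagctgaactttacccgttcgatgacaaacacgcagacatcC
Bdh1-203 window: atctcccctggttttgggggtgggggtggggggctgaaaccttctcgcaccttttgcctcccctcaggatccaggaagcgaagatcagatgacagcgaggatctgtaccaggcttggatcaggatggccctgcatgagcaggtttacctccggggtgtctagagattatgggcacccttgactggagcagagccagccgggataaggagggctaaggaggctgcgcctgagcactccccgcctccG
Oxct1-201 window: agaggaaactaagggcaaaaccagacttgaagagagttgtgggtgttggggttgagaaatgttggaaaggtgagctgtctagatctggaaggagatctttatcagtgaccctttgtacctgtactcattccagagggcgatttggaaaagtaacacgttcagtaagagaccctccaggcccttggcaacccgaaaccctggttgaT
The windows span chr16:31422047-31422280, chr16:31428503-31428748 and chr15:4026178-4026383. Their GC content was 50%, 60.6% and 47.6% in that order. The hexamer AGGTCA, a nuclear receptor element, searched on both strands, was in none of them, against 14.0% of 32851 promoter windows of 250 bases. The E-box CACGTG was in none of them either, and 6.02% of the windows held it. Slc16a1, whose window had 75.7% GC, held CACGTG and no AGGTCA.

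Transcript estimates placed most Bdh1 reads downstream of the first start. Bdh1-203, a protein-coding transcript of 3122 bases that begins at the end of the second window, took 64.5% to 80.5% of the gene's reads (median 74.9% over 21 hearts). Bdh1-202, a protein-coding transcript of 1496 bases with a start of its own still further downstream (16:31429299), took 11.5% to 24.5% (median 14.8%). Bdh1-201, which begins at the end of the first window, had reads in 3 of 21 hearts and at most 1.8% of the gene's reads. The short retained-intron transcript Bdh1-205 (438 bases) took 7.64% to 11.0% of the reads but 52.0% to 60.9% of the gene's TPM, since TPM divides by length. Bdh1-203 and Bdh1-205 had log2 TPM with r = 0.978 over the 21 hearts, so both were high and low in the same hearts. How reads are divided among overlapping transcripts is an estimate of the quantifier, and these shares are uncertain.

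**Figure D1:**
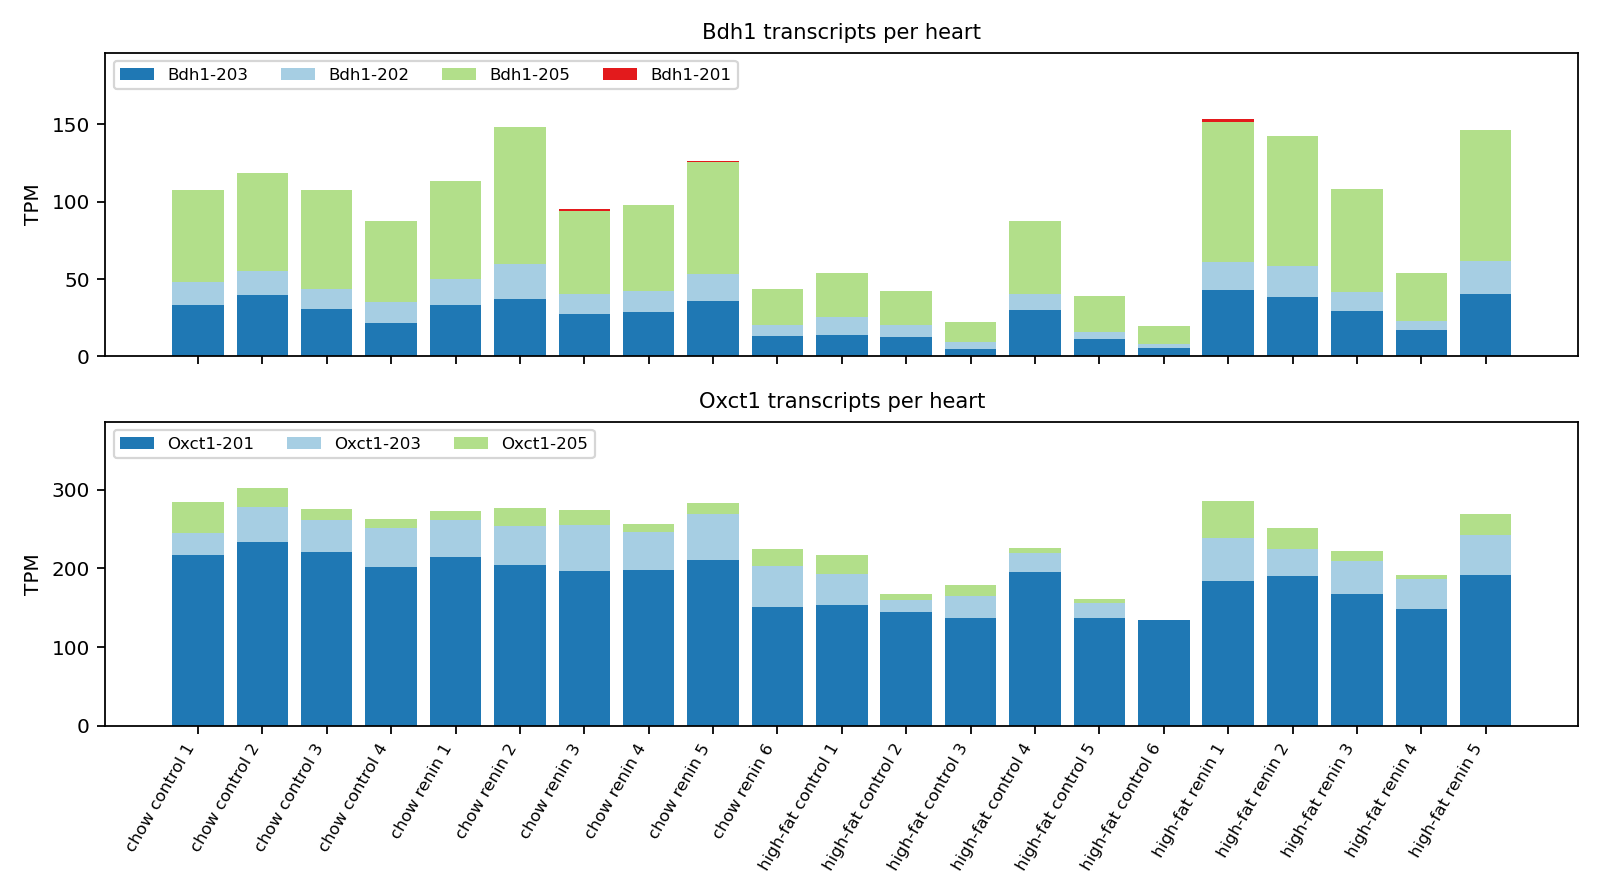
Stacked bars give the TPM (vertical axis) of the main transcripts of Bdh1 (top) and Oxct1 (bottom) in each of 21 hearts. Bdh1-205 and Bdh1-203 shrink together in high-fat control hearts other than replicate 4, in chow renin replicate 6 and in high-fat renin replicate 4, and Bdh1-201 is a sliver in 3 hearts.

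For Oxct1, the full-length protein-coding Oxct1-201 held 87.0% to 99.9% of reads (median 93.8%). The short Oxct1-203 took 0% to 22.8% of TPM and was at 0 in high-fat control replicate 6. Acat1-201 held 99.7% to 100% of the reads of Acat1, and Slc16a1 has a single annotated transcript.

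Slc16a1 encodes the transporter MCT1, which carries ketone bodies, lactate and pyruvate with a proton. In chow control it measured 209.9, 217.3, 166.6 and 179.9 CPM. In chow renin the lowest heart had 140.6 CPM, the median was 148.6 CPM and the highest was 173.2 CPM. High-fat control ranged from 151.1 to 218.5 CPM around a median of 182.4 CPM, and the 5 high-fat renin hearts had 238.1, 161.3, 153.6, 185.8 and 167.2 CPM. Of the 6 chow renin hearts, 4 were below every chow control heart. The other groups overlapped chow control widely.

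Between chow renin and chow control, 1 of the 4 genes was called, Slc16a1, where 13.5% of all genes tested were called and 3.36% were called lower. At an unadjusted p under 0.05 (edgeR) 2 of the 4 were past the threshold, Slc16a1 and Oxct1, where 25.1% of all genes were. Its log2 fold change was -0.33 ± 0.11 (SE), from 193.4 ± 24.1 (SD, n = 4) to 153.7 ± 14.1 CPM (SD, n = 6), with an adjusted p of 0.04996 (edgeR). It was the last of the 2048 genes called. It was called in 11 of 34 alternative fits, whose values ran from -0.67 to 0.18. When the central nervous score was a covariate, its difference was 0.18 (adjusted p = 0.901, edgeR). That score was 3.72 to 4.59 in chow renin and 1.59 to 2.2 in chow control, so this fit cannot tell score and group apart. Leaving out 1 heart at a time gave differences of -0.40 to -0.27 with adjusted p-values of 0.0245 to 0.22 (edgeR). Over the 21 hearts log2 CPM of Slc16a1 had r = -0.659 with that score. DESeq2 called it as well (adjusted p = 0.0418).

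On the high-fat diet Slc16a1 was not called. High-fat renin and high-fat control differed by -0.01 ± 0.10 on the log2 scale, with a 95% interval of -0.23 to 0.21 and an adjusted p of 0.959 (edgeR). The interaction, which is the renin difference within the high-fat diet less the one within chow, was 0.32 ± 0.15 and was not called (adjusted p = 0.212, edgeR). High-fat control differed from chow control by -0.08 ± 0.11 (adjusted p = 0.838, edgeR), and high-fat renin from chow renin by 0.24 ± 0.10 (adjusted p = 0.11, edgeR). Against chow control, high-fat renin differed by -0.09 ± 0.12 (adjusted p = 0.666, edgeR).

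Bdh1 encodes the mitochondrial beta-hydroxybutyrate dehydrogenase. Chow control hearts had 161.9, 180.7, 139.7 and 114.3 CPM. Chow renin hearts had a lowest value of 61.3 CPM, a median of 136.8 CPM and a highest of 183.0 CPM. High-fat control hearts had a lowest of 26.6 CPM, a median of 68.8 CPM and a highest of 150.0 CPM.
Of the 6 high-fat control hearts, 5 were below every chow control heart, and the heart that was not was replicate 4. High-fat renin hearts had 193.5, 198.1, 139.7, 81.7 and 195.0 CPM, so 3 of 5 were above every high-fat control heart and also above every chow control heart. Group means were 149.1 ± 28.7 CPM in chow control (SD, n = 4), 133.6 ± 42.1 CPM in chow renin (SD, n = 6), 70.0 ± 45.2 CPM in high-fat control (SD, n = 6) and 161.6 ± 50.8 CPM in high-fat renin (SD, n = 5).

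**Figure D2:**
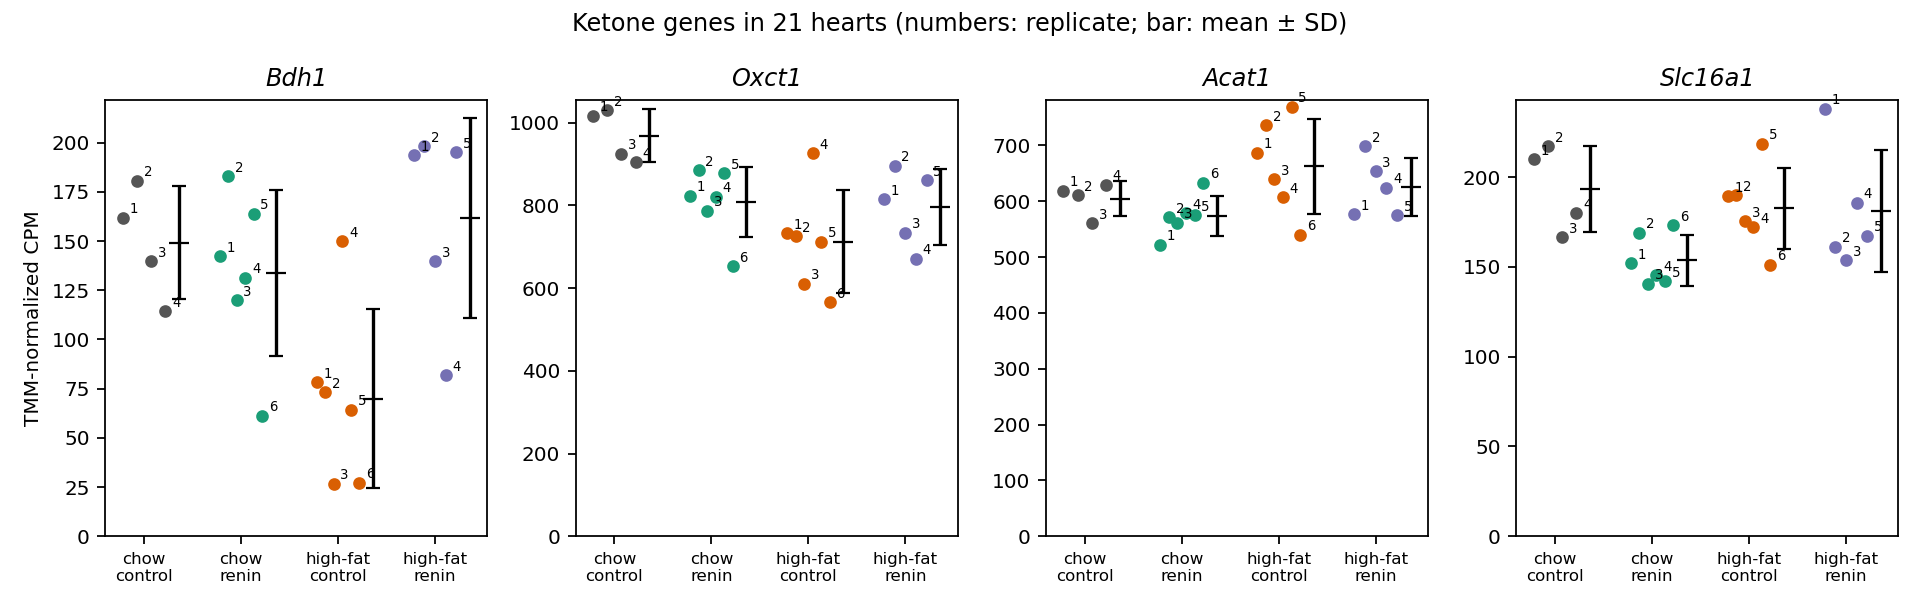
Points show the CPM (vertical axis, starting at 0) of the 4 ketone genes in each heart by group, with replicate numbers beside them. Bars are the mean ± SD. High-fat control replicate 4 and chow renin replicate 6 lie away from the rest of their groups for Bdh1 and Oxct1.

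In high-fat control against chow control, Bdh1 differed by -1.09 ± 0.41 on the log2 scale, with a 95% interval of -1.95 to -0.23. Its unadjusted p was 0.0156 and its adjusted p 0.339 (edgeR), so it was not called. None of the 4 genes was called in that comparison, where 0.0657% of all genes (10 genes) were. At an unadjusted p under 0.05 (edgeR) 2 of the 4 were past the threshold, Bdh1 and Oxct1, beside 11% of all genes. Leaving out replicate 4 of the diet group, Bdh1 differed by -1.47 (adjusted p = 0.0873, edgeR). Over all hearts left out in turn it differed by -1.47 to -0.92, with adjusted p-values of 0.0873 to 0.577 (edgeR). Bdh1 was called there in 0 of 34 alternatives.

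Within the high-fat diet, the renin hearts averaged more Bdh1 than the control hearts. The difference was 1.21 ± 0.39 on the log2 scale, with a 95% interval of 0.39 to 2.02 and an adjusted p of 0.0528 (edgeR), just short of the threshold. Of the 4 genes 0 were called by edgeR, where 11.1% of all genes were, and 1 had an unadjusted p under 0.05, beside 26.5% of all genes. Alternative fits called Bdh1 in 7 of 34, with differences of 0.82 to 1.58 and adjusted p-values from 0.0118 to 0.993 (edgeR, DESeq2 or limma). DESeq2 called Bdh1 at an adjusted p of 0.0151, and limma on log2(TPM + 1) did so with a difference of 1.53 (adjusted p = 0.0121). Leaving out replicate 4 of the control group, the difference was 1.58 (adjusted p = 0.0118, edgeR). Without high-fat renin replicate 4 it was 1.38 (adjusted p = 0.025, edgeR), and without chow renin replicate 6 it was 1.21 (adjusted p = 0.0434, edgeR). Over all hearts left out in turn it was 1.03 to 1.58, with adjusted p-values of 0.0118 to 0.139 (edgeR). With the clock score as a covariate the difference was 0.90 (adjusted p = 0.993, edgeR). The clock score was lower in the renin hearts, at 2.4 to 3.45 against 3.53 to 3.85, so this fit cannot tell score and group apart.

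On chow, Bdh1 was not called with renin. Chow renin and chow control differed by -0.16 ± 0.41, with a 95% interval of -1.02 to 0.70 (adjusted p = 0.868, edgeR). The interaction was 1.36 ± 0.56 (unadjusted p = 0.0257, adjusted p = 0.144, edgeR). Of the 4 genes 0 were called for the interaction by edgeR, where 10.4% of all genes were, and 3 had an unadjusted p under 0.05, beside 23% of all genes. DESeq2 called 0 of the 4 there, and 1805 of 15216 genes. The Bdh1 interaction was 1.74 (adjusted p = 0.0315, edgeR) once replicate 4 of high-fat control was left out, the only call in 33 alternatives. Over all hearts left out in turn it was 1.18 to 1.74, with adjusted p-values of 0.0315 to 0.263 (edgeR). High-fat renin differed from chow control by 0.12 ± 0.43 (adjusted p = 0.901, edgeR) and from chow renin by 0.27 ± 0.38 (adjusted p = 0.674, edgeR). In these comparisons 0 of the 4 genes were called by edgeR, against 8.29% and 22.6% of all genes, and 0 by DESeq2, which called 1622 and 3633 genes, and 1 gene in each had an unadjusted p under 0.05, beside 23.9% and 33.7% of all genes.

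**Figure D3:**
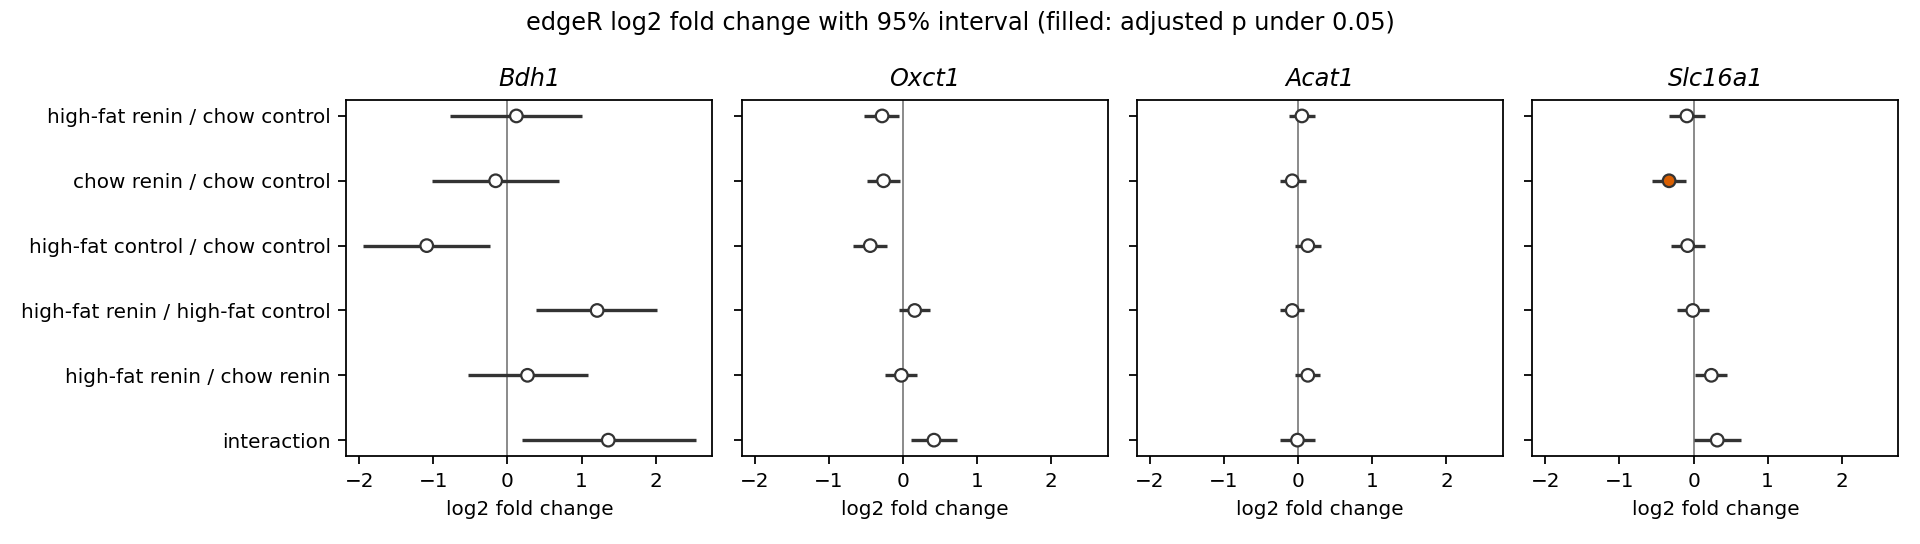
Points are edgeR log2 fold changes (horizontal axis) with 95% intervals for the 4 genes in 5 group comparisons and the interaction, and a filled point marks an adjusted p under 0.05. The only filled point is Slc16a1 in chow renin against chow control, and the intervals of Bdh1 are the widest.

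Oxct1 encodes SCOT, the enzyme that commits acetoacetate to oxidation. Chow control hearts had 1016.5, 1029.8, 924.6 and 904.2 CPM. Chow renin ran from 652.9 to 885.4 CPM with a median of 822.2 CPM, and high-fat control from 565.5 to 925.7 CPM with a median of 719.5 CPM. High-fat renin hearts had 815.2, 896.6, 734.3, 671.0 and 860.8 CPM.
All 6 chow renin and all 5 high-fat renin hearts were below every chow control heart, and so were 5 of 6 high-fat control hearts. Of the 4 genes, Oxct1 was the only one whose values did not overlap in these comparisons with chow control, where 15.1% (chow renin) and 10% (high-fat renin) of all genes did not overlap in CPM. On the TPM scale the renin groups overlapped chow control: chow control held 263.5 to 302.0 TPM, chow renin 225.1 to 282.8 TPM and high-fat renin 191.7 to 287.2 TPM. High-fat control, at 134.6 to 226.9 TPM, did not overlap chow control on that scale, nor did 4.22% of all genes.

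Tested by edgeR, Oxct1 in high-fat control was 0.735 times chow control, a log2 fold change of -0.44 ± 0.11 with a 95% interval of -0.67 to -0.22. The unadjusted p was 0.000467, the 52nd smallest of 15216, and the adjusted p 0.131 (edgeR). DESeq2 called it (adjusted p = 0.0323), and limma on log2(TPM + 1) called it at -0.65 (adjusted p = 0.0168). With replicate 4 of that group left out edgeR called it at -0.53 (adjusted p = 0.0191). It was called in 4 of 34 alternatives. Leaving out 1 heart at a time gave -0.53 to -0.39, with adjusted p-values of 0.0191 to 0.356 (edgeR). Chow renin differed from chow control by -0.26 ± 0.11 (adjusted p = 0.125, edgeR) and high-fat renin by -0.28 ± 0.11 (adjusted p = 0.127, edgeR). These 3 comparisons share the chow control hearts.

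High-fat renin and high-fat control differed by 0.16 ± 0.10 in Oxct1 (adjusted p = 0.342, edgeR). On log2(TPM + 1) the same comparison gave 0.44 and was called (adjusted p = 0.0179, limma), and 2 of 34 alternatives called it. The interaction was 0.42 ± 0.15 (unadjusted p = 0.01, adjusted p = 0.0777, edgeR). Leaving out replicate 4 of high-fat control gave 0.51 (adjusted p = 0.014, edgeR) and leaving out replicate 4 of high-fat renin gave 0.48 (adjusted p = 0.0373, edgeR). These were the only 2 calls in 33 alternatives. Over all hearts left out in turn the interaction was 0.36 to 0.51, with adjusted p-values of 0.014 to 0.186 (edgeR). Between the renin groups Oxct1 differed by -0.02 ± 0.10 (adjusted p = 0.909, edgeR).

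Acat1 encodes the thiolase that completes ketone breakdown and also acts in the breakdown of isoleucine. Chow control hearts had 618.5, 610.4, 560.1 and 629.3 CPM. Chow renin ran from 522.3 to 632.7 CPM (median 572.7), high-fat control from 539.7 to 769.3 CPM (median 662.8), and high-fat renin had 576.9, 698.5, 653.3, 624.1 and 575.0 CPM.
The groups overlapped in every comparison. Differences ran from -0.08 to 0.13 on the log2 scale, and the smallest adjusted p was 0.276 (edgeR). That p belonged to high-fat renin against chow renin, with an interval of -0.04 to 0.29, and high-fat control against chow control had one of -0.04 to 0.31. Log2 CPM of Acat1 had r = 0.767 over hearts with the share of reads from mitochondrially encoded genes, and r = 0.689 after group means were taken off. By TPM the group means lay between 154.6 and 158.9 TPM.

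Spread between animals differed strongly among the 4 genes. Within groups, the SD of log2 CPM was 0.67 for Bdh1, 0.18 for Oxct1, 0.13 for Acat1 and 0.19 for Slc16a1. Bdh1 was at the 99.6th percentile among the 2433 genes with a mean of at least 50 CPM, so few genes of that abundance varied more between animals of a group. After group means were taken off, Bdh1 had r = -0.661 with the mean level of 5 fibroblast markers. Oxct1 and Acat1 each had -0.638 with them, and Slc16a1 -0.414. With a score of ribosomal protein genes r was -0.604 for Bdh1, -0.611 for Oxct1, -0.407 for Acat1 and -0.152 for Slc16a1. With that ribosomal protein score as a covariate the Bdh1 difference between the high-fat groups was 0.82 (adjusted p = 0.194, edgeR). The part of the fibroblast markers was not tested. Differences between groups held 48% of the variance of Bdh1, 46.8% of Oxct1, 30.2% of Acat1 and 34.8% of Slc16a1.

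Of the 6 pairs among the 4 genes, Bdh1 and Oxct1 varied together. Over 21 hearts Pearson's r of log2 CPM was 0.869 and Spearman's rho 0.743. A permutation test with 100000 resamples gave p = 1e-05 for r, the smallest it can give, and 6e-05 after adjustment over the 6 pairs, and for rho an adjusted p of 0.00108. Without the 2 hearts farthest from the median of Bdh1, high-fat control replicates 3 and 6, r was 0.782. After group means were taken off, r was 0.968 (permutation within groups, adjusted p = 6e-05).
Within groups the pair stayed together. In chow renin r was 0.996 (exact permutation p = 0.00139, n = 6) and in high-fat control 0.976 (exact permutation p = 0.00417, n = 6), each with an adjusted p of 0.0167 over 12 such permutation tests. Hearts low in Bdh1 were thus low in Oxct1 inside both groups. Without both hearts that stood apart, r over the other 19 hearts was 0.863, and 0.941 after group means were taken off. The Bdh1 range spanned 7.45-fold from the lowest to the highest heart and the Oxct1 range 1.82-fold.

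**Figure D4:**
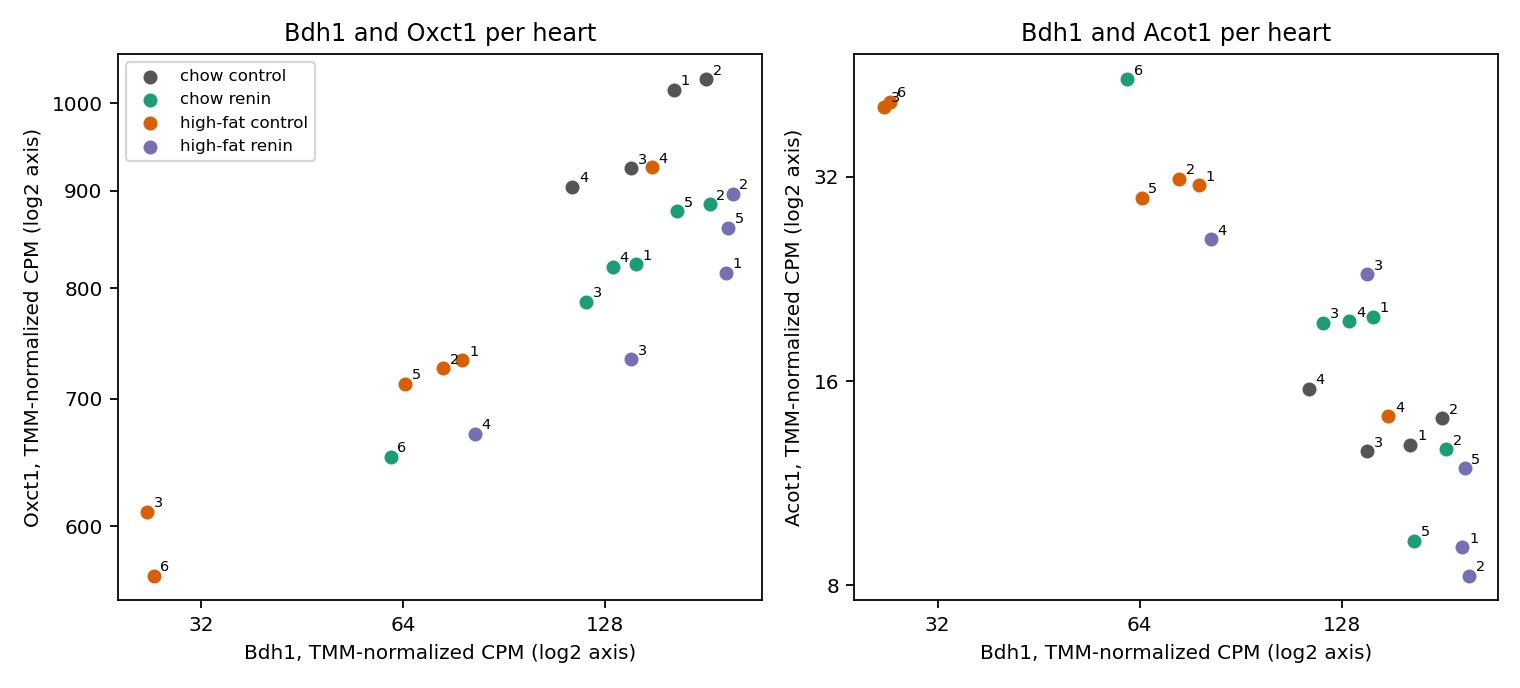
Each point is a heart, with log2 axes of CPM: Bdh1 against Oxct1 (left) and Bdh1 against Acot1 (right), coloured by group and numbered by replicate. The left plot has r = 0.869 over 21 hearts, and the right plot has r = -0.883 with high-fat control replicate 4 (14.2 CPM of Acot1) among the chow hearts and chow renin replicate 6 (44.6 CPM) above the other hearts of its group.

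Acat1 and Slc16a1 gave r = 0.451 (permutation, adjusted p = 0.116) and rho = 0.542 (permutation, adjusted p = 0.0394). Without the 2 hearts farthest from the median of Acat1, r was 0.301, and on deviations from group means it was 0.334 (permutation, adjusted p = 0.552). Inside high-fat control the pair had r = 0.963 (exact permutation p = 0.00417, adjusted p = 0.0167, n = 6), and inside chow renin r = 0.49 (exact permutation p = 0.393, adjusted p = 0.562, n = 6). The other 4 pairs had r between -0.219 and 0.145, with adjusted permutation p-values of at least 0.635. Without the 2 hearts farthest from the median, Bdh1 and Acat1 had r = -0.565 in place of -0.219, and Oxct1 and Acat1 -0.387 in place of -0.17. Those 2 hearts were high-fat control replicates 3 and 6. The same removal gave Bdh1 and Slc16a1 -0.146 in place of 0.0291, and Oxct1 and Slc16a1 0.0495 in place of 0.145. Inside chow renin the 4 pairs had r of -0.688 to -0.404 (exact permutation, adjusted p of at least 0.463, n = 6), and inside high-fat control 0.29 to 0.378 (exact permutation, adjusted p of at least 0.562, n = 6).

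Genes most like each member were sought among 10061 tested genes with a mean of at least 5 CPM, as a description over 21 hearts that share library depth and groups. For Bdh1 they were Abcb4 (r = 0.922), a phospholipid transporter, Mybpc3 (r = 0.915), cardiac myosin binding protein C, and Gnb3 (r = 0.908), a G protein subunit. For Oxct1 they were Slc25a13 (r = 0.884), a mitochondrial aspartate-glutamate carrier, Doc2g (r = 0.878) and Bdh1 itself. For Acat1 they were Etfdh (r = 0.934) and Hadhb (r = 0.91), both enzymes of mitochondrial fatty acid oxidation, and Psap (r = 0.911), a lysosomal protein precursor. For Slc16a1 they included Micall1 (r = 0.892) and Alas1 (r = 0.873), the first enzyme of haem synthesis.

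Genes of opposite pattern were looked at after the values were seen. Against Bdh1 the lowest r of all belonged to Acot1, an acyl-CoA thioesterase (r = -0.883), whose r with Oxct1 was -0.839. Without both hearts that stood apart these were -0.884 and -0.824 over 19 hearts. Acot1 measured 44.6 CPM in chow renin replicate 6 and 9.3 to 19.9 CPM in the other 5 hearts of that group. High-fat control replicate 4 had 14.2 CPM of it, against 29.8 to 41.3 CPM for its 5 group mates.

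The list of other ketone genes held 17, of which 13 passed the filter on low counts. Of these 13, 3 were called higher in chow renin against chow control and 0 lower, beside 10.1% of all genes called higher. Acat2, the cytosolic thiolase, differed by 0.39 ± 0.13 (adjusted p = 0.0406, edgeR). Acat3, with 0 to 15 reads per heart, differed by 2.86 ± 0.83 (adjusted p = 0.0215, edgeR). The fit with the central nervous score as covariate gave Acat2 0.15 (adjusted p = 0.937, edgeR) and Acat3 2.81 (adjusted p = 0.716, edgeR), and they were called in 24 of 34 and 29 of 33 alternatives. Emb, embigin, a chaperone of monocarboxylate transporters, differed by 1.55 ± 0.17 (adjusted p = 3.76e-07, edgeR).
Emb levels were 2.79 ± 0.374 CPM in chow control (SD, n = 4), 8.19 ± 1.4 CPM in chow renin (SD, n = 6), 2.85 ± 0.616 CPM in high-fat control (SD, n = 6) and 2.46 ± 0.475 CPM in high-fat renin (SD, n = 5). Central nervous markers were higher in the same group, and their part in these calls was not tested. Their score was 3.72 to 4.59 in chow renin and 1.39 to 2.76 in the other groups. A fit with it as a covariate thus cannot tell score and group apart. That fit gave Emb a difference of 1.60 in this comparison, with an adjusted p of 0.229 (edgeR). Of the 13 genes, 9 had a positive difference, with a median of 0.17 beside -0.03 over all genes.

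Comparing the high-fat groups, 1 of the 13 was called higher with renin and 0 lower, beside 6.07% of all genes called higher. It was Slc16a6, a monocarboxylate transporter of the same family, at 0.64 ± 0.15 (adjusted p = 0.00968, edgeR). It measured 16.3 ± 4.28 CPM (SD, n = 5) against 10.4 ± 1.88 CPM (SD, n = 6). It was called in 30 of 34 alternatives, and with the clock score as a covariate it was at 0.29 (adjusted p = 0.993, edgeR), with the ribosomal protein score at 0.50 (adjusted p = 0.0645, edgeR). In high-fat renin against chow renin 4 of 13 were called lower and 0 higher, beside 12.8% of all genes called lower: Emb at -1.73, Acat2 at -0.56, Slc16a7 at -0.75 and Hmgcll1 at -1.70, the latter with at most 27 reads per heart. Once the central nervous score was a covariate 3 of these 4 calls were lost. Hmgcll1 was then at 0.98 (adjusted p = 0.998, edgeR), Acat2 at -0.35 (adjusted p = 0.993, edgeR) and Slc16a7 at -0.30 (adjusted p = 0.998, edgeR), while Emb was at -1.77 (adjusted p = 0.0467, edgeR). In that order the 4 genes were called in 23 of 32, 33 of 34, 30 of 34 and 34 of 34 alternatives. In edgeR 0 of the 13 were called in high-fat renin or in high-fat control against chow control, with 6 and 1 at an unadjusted p under 0.05, beside 23.9% and 11% of all genes. For the interaction 1 of 13 was called, Emb at -1.76 (adjusted p = 1.21e-05, edgeR), beside 7.3% of all genes called lower. Bsg (basigin), the main chaperone of MCT1, measured 921.6, 844.3, 914.8 and 894.5 CPM on average in chow control, chow renin, high-fat control and high-fat renin. Oxct2a, Oxct2b, Slc5a8 and Hcar2 did not pass the filter, with at most 11 reads in any heart.

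Enzymes that surround ketone use were described from lists of the citric acid cycle entry (11 genes), lactate and pyruvate (14 genes) and mitochondrial beta-oxidation (18 genes). In high-fat renin against chow control, 3 of 11 citric acid cycle genes were called lower and 0 higher: Cs at -0.30, Sdha at -0.29 and Sdhb at -0.25, beside 4.25% of all genes called lower. Of the lactate and pyruvate genes 5 of 14 were called lower, led by Ldhb at -0.40 and Pdk2 at -0.41, and of the beta-oxidation genes 1 of 18, Echs1 at -0.31. Between the high-fat groups 4 of 11, 4 of 14 and 7 of 18 were called lower with renin and 0 higher, beside 5.08% of all genes. Of 8 cardiomyocyte markers 5 were called lower and 0 higher there (edgeR), with sums of 27648 to 31863 TPM with renin and 31751 to 38553 TPM without, and their part was not tested. Examples were Suclg1 (-0.30), a subunit of the enzyme that makes succinyl-CoA, Ldhb (-0.34) and Etfb (-0.50). In the same comparison Bdh1 had the difference of 1.21 described above. With the clock score as a covariate 0 genes of these lists were called in either comparison, and 0 of all genes. In high-fat renin against chow renin 0 of 11, 2 of 14 (Ldhb and Pdk2) and 0 of 18 were called lower, beside 12.8% of all genes, and 0 of 11, 2 of 14 (Pdk1 and Ldha) and 2 of 18 (Slc25a20 and Cpt2) higher, beside 9.8%. Adding the central nervous score left 0 genes of these 3 lists called between the renin groups. In high-fat control against chow control 16 of 18 beta-oxidation genes had a positive difference, with a median of 0.21 beside 0.01 over all genes, and 0 were called by edgeR, with 13 at an unadjusted p under 0.05, beside 11% of all genes. In chow renin against chow control 3 of 11, 2 of 14 and 0 of 18 were called lower and 0 higher, beside 3.36% of all genes. There 6 of 8 cardiomyocyte markers had an unadjusted p under 0.05 (edgeR), beside 25.1% of all genes. Their sums were 32056 to 37550 TPM in chow renin and 35565 to 41316 TPM in chow control, and their part was not tested. Central nervous markers were higher in chow renin, as given above, and their score as a covariate left 0 genes of these lists called and 39 of all genes in place of 2048.

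Isoleucine and valine breakdown shares ACAT1 as its last isoleucine step, and 12 of 13 listed genes were tested. In high-fat renin against chow control 9 of 12 were called lower and 0 higher, beside 4.25% of all genes called lower, with a median of -0.39 beside 0.02 over all genes. Bckdhb, a subunit of the branched-chain ketoacid dehydrogenase, was at -0.87 (adjusted p = 1.41e-04, edgeR), and Hsd17b10, the step before ACAT1, at -0.51 (adjusted p = 1.24e-04, edgeR). Acat1 itself was at 0.05 in the same comparison. In this comparison 6 of 8 cardiomyocyte markers were called lower and 0 higher (edgeR), with Myh6 at -0.48. Of 5 fibroblast markers 0 were called (edgeR), and 4 had a positive difference with an unadjusted p under 0.05. The part of either in the lower values was not tested. The clock score was below that of chow control in every high-fat renin heart, and with it as a covariate 0 of the 12 were called. Against high-fat control 5 of 12 were called lower, beside 5.08% of all genes. Against chow renin 7 were called lower, beside 12.8% of all genes, and 1 higher, Hibch at 0.24 (named after its value was seen), beside 9.8%. Of these 8 calls 0 were left once the central nervous score was added, where 38 of all genes were called in place of 3440.

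Of 12 listed regulators 8 were tested. Esrra, a nuclear receptor that drives oxidative genes, was called lower in chow renin against chow control (-0.27, adjusted p = 0.0195, edgeR) and in high-fat renin compared to its diet control (-0.25, adjusted p = 0.0301, edgeR), beside 3.36% and 5.08% of all genes called lower. The first call was lost when the covariate was the central nervous score (-0.09, adjusted p = 0.937, edgeR) or the clock score (-0.26, adjusted p = 0.263, edgeR), in limma on log2(TPM + 1) (-0.21, adjusted p = 0.189), and without chow control replicate 1 or 2 or chow renin replicate 3 or 5 (adjusted p of 0.0524 to 0.128, edgeR). The second was lost with the clock score (-0.24, adjusted p = 0.993, edgeR) and the ribosomal protein score (-0.16, adjusted p = 0.145, edgeR), in limma on log2(TPM + 1) (-0.13, adjusted p = 0.344), with only the groups compared, and when replicate 5 or 6 was left out of high-fat control, or 2 or 5 out of high-fat renin (adjusted p of 0.0619 to 0.0997, edgeR). The 2 calls were made in 26 and 24 of 34 alternatives. The other 7 were not called in any comparison.

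The authors' deposited table gives its own comparison of the high-fat diet with virus, without naming the reference group. In the authors' deposited table, Bdh1 is listed at a log2 fold change of 0.026 (adjusted p = 0.853), Oxct1 at -0.115 (adjusted p = 0.341), Acat1 at 0.019 (adjusted p = 0.897) and Slc16a1 at -0.051 (adjusted p = 0.714). None of the 4 genes is past 0.05 there.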

How the data were processed

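RNA from 21 hearts was sequenced, 1 library per animal, and the sample titles gave each group and replicate number. The authors deposited a transcript table per library in the layout of Salmon (version 1.10.2, per the submitters' processing notes, which also name DESeq2 1.40.2) with estimated counts, not normalized, per the file headers. The same deposited tables give TPM, corrected for effective length. A deposited gene matrix holds a signal per library for 19096 genes, whose scaling is not given in the sources used here, and, per its header, the authors' log2 fold change and adjusted p-value for the high-fat diet with virus. Its columns were tied to libraries by the animal codes in the file names, and each column correlated best with its own library in 21 of 21.

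Of 119215 transcripts, 98.0% matched GENCODE M21 (GRCm38), and 0.854% to 0.925% of a library's reads were unmatched and left out. What remained was added up per gene and rounded to whole numbers. filterByExpr kept 15216 of 23718 genes with reads, holding 99.96% of reads. edgeR 4.0.16 (R 4.3.3) fitted 4 groups together with TMM factors (0.886 to 1.09) and robust quasi-likelihood F tests, with Benjamini-Hochberg adjustment and calls at an adjusted p under 0.05. The standard error is the log2 fold change over the square root of F. The design had foreseen raw counts of genes, and rounded sums of estimated counts took their place. Depth is 18.6 to 29.0 M reads, and for the 4 members counting error is small beside the spread between animals. The same is not said of genes with few reads, such as Acat3 and Hmgcll1. Nothing in the labels pairs the animals across groups. Where nothing says that samples came from separate litters or cages, p-values measure the spread between these samples only. In 46 pairs of libraries within groups, the chi-square per degree of freedom was at least 3.5, so none was counted as a repeat.

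Correlations used log2 CPM with a prior count of 2, computed with Python 3.11.15, and permutation tests with 100000 resamples. Alternatives were DESeq2 1.42.0, limma 3.58.1 on log2(TPM + 1), log2(TPM + 0.1) and log2(signal + 1), upper-quartile factors, no filter, a replicate block, thinning, only the compared groups, clock and central nervous scores as covariates, and each library left out. Leaving out mitochondrially encoded genes and a ribosomal protein score, correlations without 2 hearts, and all alternatives for Esrra, were added after the data were seen. The 4 members and all gene lists were chosen with earlier results of these data known. Named were the members, the other ketone genes, called genes of the other lists (at most 5 a list by adjusted p), and the 3 genes of highest r with each member. Libraries and genes outside that rule are said to be chosen after their values were seen. Some genes that this rule names are not reported here, though counts over the lists include them.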

Additional observations from a re-analysis of the deposited data

Results flagged for a closer look

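A difference between diets was seen in Emb, the transporter chaperone. Renin went with a log2 difference of 1.55 ± 0.17 (SE) on chow, from 2.79 ± 0.374 CPM (SD, n = 4) to 8.19 ± 1.4 CPM (SD, n = 6). All 6 renin hearts were above all 4 controls, and for 15.1% of all genes these groups did not overlap in CPM. On the high-fat diet the means were 2.85 ± 0.616 CPM without renin (SD, n = 6) and 2.46 ± 0.475 CPM with it (SD, n = 5). The interaction was -1.76 ± 0.24 (adjusted p = 1.21e-05, edgeR). It was called in 32 of 33 alternatives, with values of -1.88 to -1.02 and adjusted p-values from 8.18e-11 to 0.478 (edgeR, DESeq2 or limma). Markers of the central nervous system were higher in the same group. With their score as a covariate the interaction was -1.81 and was not called (adjusted p = 0.478, edgeR). The score of chow renin did not overlap that of any other group, so this fit cannot tell score and group apart. By Dixon's criterion on CPM, 0 of 16 sets of values (4 ketone genes in 4 groups) held an outlying heart, and this includes the 2 hearts said to stand apart, which were singled out after their values were seen.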

How the results depend on the processing

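Chow renin set against chow control had 1 of the 4 members called, and the other comparisons 0. In the former, 0 were called with upper-quartile factors, without the low-count filter, after thinning, and with mitochondrially encoded genes left out. Likewise 0 were called with the central nervous score as covariate and in limma on log2(TPM + 1), log2(TPM + 0.1) or log2(signal + 1). Called were 2 with only the compared groups or with the ribosomal protein score as covariate, beside 2499 of 14838 and 2337 of 15216 genes. In high-fat control against chow control DESeq2 and both limma fits on TPM called 1, beside 117, 87 and 111 of 15216 genes. Between the high-fat groups DESeq2 and limma on signal called 1, beside 2176 of 15216 and 1145 of 12111 genes. Both limma fits on TPM called 2 there, beside 1700 and 1725 of 15216 genes. The ribosomal protein score led to 1 in high-fat renin against chow control, beside 1187 of 15216 genes. With 1 library left out, 0 to 1 were called in either of chow renin and high-fat control set against chow control and between the high-fat groups, and 0 to 2 for the interaction. The call in high-fat control came without its replicate 4, beside 57 calls over all genes. Those between the high-fat groups came without high-fat control 4, high-fat renin 4 or chow renin 6, beside 1491, 2394 and 1689. Those for the interaction came without high-fat control 4 (2) or high-fat renin 4 (1), beside 1501 and 1951.

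The numbers of replicates did not pair the animals: deviations of hearts sharing a number had a median r of 0.08, and those of hearts with different numbers -0.02. A fit with a replicate block called 0 members in chow renin against chow control (Slc16a1 at -0.32, adjusted p = 0.0521, edgeR) and 3 genes of the pathway lists for the interaction, and it did not call Esrra between the high-fat groups (-0.22, adjusted p = 0.0583, edgeR).

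Some differences changed sign, among them 2 that were called, Slc16a1 in chow renin against chow control and Hmgcll1 between the renin groups. The central nervous score gave Acat1 0.03 and Slc16a1 0.18 in chow renin, and Slc16a1 0.04 in high-fat control, against chow control. It gave Oxct1 0.09, Slc16a1 -0.21 and Hmgcll1 0.98 between the renin groups, and -0.25 for the interaction of Slc16a1. Limma on TPM, with either pseudocount, gave Acat1 0.02 in chow renin against chow control, 0.04 between the high-fat groups and 0.02 for the interaction, and Slc16a1 0.10 between the high-fat groups. Bdh1 in high-fat renin was at -0.37 (clock score) and -0.28 (ribosomal protein score) against chow control, and -0.02 (ribosomal protein score) against chow renin. With 1 library left out, Slc16a1 lay between -0.14 and 0.05 between the high-fat groups, Oxct1 between -0.08 and 0.03 between the renin groups, and the Acat1 interaction between -0.06 and 0.04. Correlations of Acat1 were 0.00775 with Bdh1 and 0.0806 with Oxct1 on log2(TPM + 1), and 0.0738 and 0.0711 on deviations from group means. The cause of these shifts was not tested.

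The 6 pathway lists had 13, 8, 11, 14, 18 and 12 tested genes. Counts of called genes in them were 18 in high-fat renin, 10 in chow renin and 0 in high-fat control against chow control. They were 22 between the high-fat groups, 18 between the renin groups and 1 for the interaction. In that order 8.29%, 13.5%, 0.0657%, 11.1%, 22.6% and 10.4% of all genes were called. With the clock score, which was lower in both renin groups, the list counts were 0, 1, 0, 0, 7 and 5 in that order. Over all genes 0 were then called in high-fat renin against either chow control or high-fat control, where 1262 and 1696 had been. With the central nervous score the list counts were 0 in chow renin against chow control, 1 between the renin groups and 0 for the interaction. Over all genes that score left 39, 38 and 23 in place of 2048, 3440 and 1589. The clock score did not overlap between renin and control hearts of either diet, nor the central nervous score between chow renin and the rest. These fits cannot tell score and group apart there. DESeq2 called 4 in high-fat control and 2 for the interaction, beside 117 and 1805 over all genes. Limma on TPM called 4 or 5 in chow renin, 4 in high-fat control, 14 between the high-fat groups and 2 for the interaction. Over all genes log2(TPM + 1) gave 1614, 87, 1700 and 1124 in that order. Limma on signal called 5 in chow renin and 9 between the renin groups, beside 759 and 1600 of 12111 genes. In chow renin 6 were called without the filter, 23 with only the compared groups and 17 with the ribosomal protein score. Over all genes these fits called 1779, 2499 and 2337. Between the high-fat groups 10 were called with only those groups, beside 549 over all genes. With upper-quartile factors 2 were called for the interaction, beside 1481 over all genes. Over all genes, high-fat control against chow control had 117 calls by DESeq2 and 87 by limma on log2(TPM + 1), in place of 10. It had 0 with the replicate block, and 0 without chow control replicate 1, 2, 3 or 4.

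With 1 library left out the pathway counts ran from 10 to 22, 2 to 20, 0 to 6, 14 to 28, 9 to 23 and 1 to 5 in the same order. Counts over all genes then ran from 565 to 1723, 1512 to 2359, 0 to 57, 696 to 2394, 2473 to 3784 and 1220 to 1951. In high-fat renin against chow control 10 were called without chow control 2 or 4 or high-fat renin 1 or 5, and 11 without chow control 1. In chow renin 2 were called without chow control 1 or 2. Without chow renin replicate 3 there were 3, without its replicate 1 there were 4 and without its replicate 5 there were 6, and 20 without chow control 3 or high-fat control 6. Leaving out high-fat control 4 gave the 6 in high-fat control, and leaving out high-fat renin 1 gave 14 between the high-fat groups. Between the renin groups 9 were called without high-fat renin 1 or 5. For the interaction 2 were called without chow control 3 or high-fat control 5, 3 without high-fat control 4, and 4 and 5 without high-fat renin 3 and 4. Precision was lowest for Bdh1, whose spread within groups was 0.67 in log2 CPM: the 95% interval of its difference between high-fat renin and chow control ran from -0.78 to 1.01. The correlation of Bdh1 and Oxct1 was 0.862 to 0.968 in its 4 alternatives.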
